A study of Mus musculus with 21 samples.

Results

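This comparison asks what inhibition of phosphodiesterase 9A (PDE9A) did to the microRNAs of the pressure-overloaded mouse heart. Of the 21 small-RNA libraries of the study, 11 belonged to it: 6 from mice with transverse aortic constriction (TAC) treated with PF-04449613, an inhibitor of PDE9A (TAC+PDE9A-I) and 5 from mice with TAC and no drug (TAC). They were chosen by their labels alone. The main fits were run on these 11 libraries and again on 10, without TAC+PDE9A-I replicate 5, whose total count was far below the rest. All animals were C57BL/6J, each library came from the left ventricle of 1 ear-tagged mouse, and the drug was given for 4 weeks beginning 1 week after surgery. The sources used here do not give ages, doses or whether the undrugged mice received a vehicle. The 5 Sham libraries, from mice that had sham surgery and no drug, are shown for reference. Of the tests, they entered only the alternative fits of 21 and 20 libraries of all 4 groups.

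PDE9A is an enzyme that hydrolyses cyclic GMP, the second messenger through which natriuretic peptides act on heart muscle, and its inhibition raises the cyclic GMP that these peptides produce. TAC narrows the aorta, so that the left ventricle works against a raised pressure and enlarges. MicroRNAs are short RNAs that repress messenger RNAs paired with their seed, the bases near the 5′ end, and several of them are known to shift in the enlarging heart: miR-208b is made with the fetal myosin gene Myh7, miR-21 and miR-199/miR-214 are prominent in fibroblasts, and miR-1 and miR-133 belong to the contractile program of the muscle cell.

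The mature sequences of the microRNAs on which the results turn are given below, 5′ to 3′, with the seed (bases 2 to 8) in capitals. They come from RefSeq (build GRCm38.p6), in which 40 of the 48 microRNAs named by rule had an entry. The first 5 lines are microRNAs with the smallest p-values for a lower level, with miR-24-3p set beside miR-3074-5p because the hairpins overlap on opposite strands, and with miR-126a-3p beside miR-126b-3p for the same reason. miR-486b-3p is named only.
miR-3074-5p: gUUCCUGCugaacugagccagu
miR-24-3p: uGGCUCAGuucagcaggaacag
miR-126b-3p: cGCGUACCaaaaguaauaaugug
miR-126a-3p: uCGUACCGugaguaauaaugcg
miR-378b: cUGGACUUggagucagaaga
Then follow miR-133b-3p, also with a small p for a lower level, and the pair with the smallest p-values for a higher level.
miR-133b-3p: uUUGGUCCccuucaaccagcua
miR-501-3p: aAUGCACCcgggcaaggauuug
miR-6538: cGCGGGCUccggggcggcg
The last lines are microRNAs known for hypertrophy and fibrosis, of which miR-208a-3p and miR-208b-3p share the seed UAAGACG.
miR-208b-3p: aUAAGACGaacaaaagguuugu
miR-208a-3p: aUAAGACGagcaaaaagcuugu
miR-21a-5p: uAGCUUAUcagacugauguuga
miR-199a-5p: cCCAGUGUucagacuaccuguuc
miR-146b-5p: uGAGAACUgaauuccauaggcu

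The libraries were of similar depth except for 1. Total microRNA counts ran from 5373960 to 8497792 in TAC and from 4785164 to 7532591 in 5 of the TAC+PDE9A-I libraries, against 1546318 in TAC+PDE9A-I 5, which had counts for 386 microRNAs where the other 10 had counts for 518 to 613. That library also stood apart in composition. Of 308 microRNAs with a mean of at least 10 CPM (counts scaled to library size with TMM factors), it lay outside the range of all the others for 215 (69.8%). Its count-weighted GC content was 47.2%, where the others lay between 44.7% and 45.3%. GC content covered only microRNAs with a RefSeq sequence. These held 37.23% of the counts of TAC+PDE9A-I 5 and 53.31% to 64.95% of those of the others, so unlike shares of the libraries were compared. A total of 3 counts, taken as the floor of detection, corresponded to 1.94 CPM there and to 0.353 in the deepest library. Over all microRNAs with a RefSeq sequence, Spearman's rho across microRNAs between the GC content and the log2 fold change was 0.355 (n = 452) with 11 libraries and 0.03 (n = 451) with 10, and what part GC content or depth has in the 11-library differences was not tested. Heart-muscle microRNAs were counted in every library, with miR-208a-3p from 20.5 to 1015 CPM, and the liver microRNA miR-122-5p did not exceed 3.66 CPM in any of the 11.

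No microRNA differed between TAC+PDE9A-I and TAC past the threshold in the edgeR fits. With edgeR's quasi-likelihood test and Benjamini-Hochberg adjustment at 0.05, 0 of 521 microRNAs were higher and 0 lower (0% called), and the smallest adjusted p was 0.569. Without TAC+PDE9A-I 5, 0 of 520 were higher and 0 lower (0%), with a smallest adjusted p of 0.277. At an unadjusted p under 0.05 there were 2 higher (0.384%) and 5 lower (0.96%) in 11 libraries, 1.34% in all, and 5 higher (0.962%) and 13 lower (2.5%) in 10, 3.46% in all, where the threshold would let through 5% if none differed. DESeq2 called 1 microRNA lower in 11 libraries (miR-3074-5p, adjusted p = 0.0191) and 3 lower in 10 (miR-486b-3p and miR-3074-5p, both adjusted p = 0.0108, and miR-126b-3p, 0.0161), with 5 higher and 7 lower, and 6 higher and 13 lower, at an unadjusted p under 0.05. limma-voom with quality weights called 0 in both, with 10 higher and 21 lower, and 6 higher and 24 lower, at an unadjusted p under 0.05. Groups that did not overlap at all were found for 0 of 521 microRNAs (0%) with 11 libraries and for 2 of 520 (0.385%) with 10. These were miR-486b-3p, lower in each treated library (1 lower, 0.192%), and miR-301a-5p, higher in each (1 higher, 0.192%) but at most 3.21 CPM in any of them, a microRNA named after its values were seen. Since these are whole-tissue extracts, fewer cells of a type and less RNA per cell cannot be told apart.

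**Figure D1:**
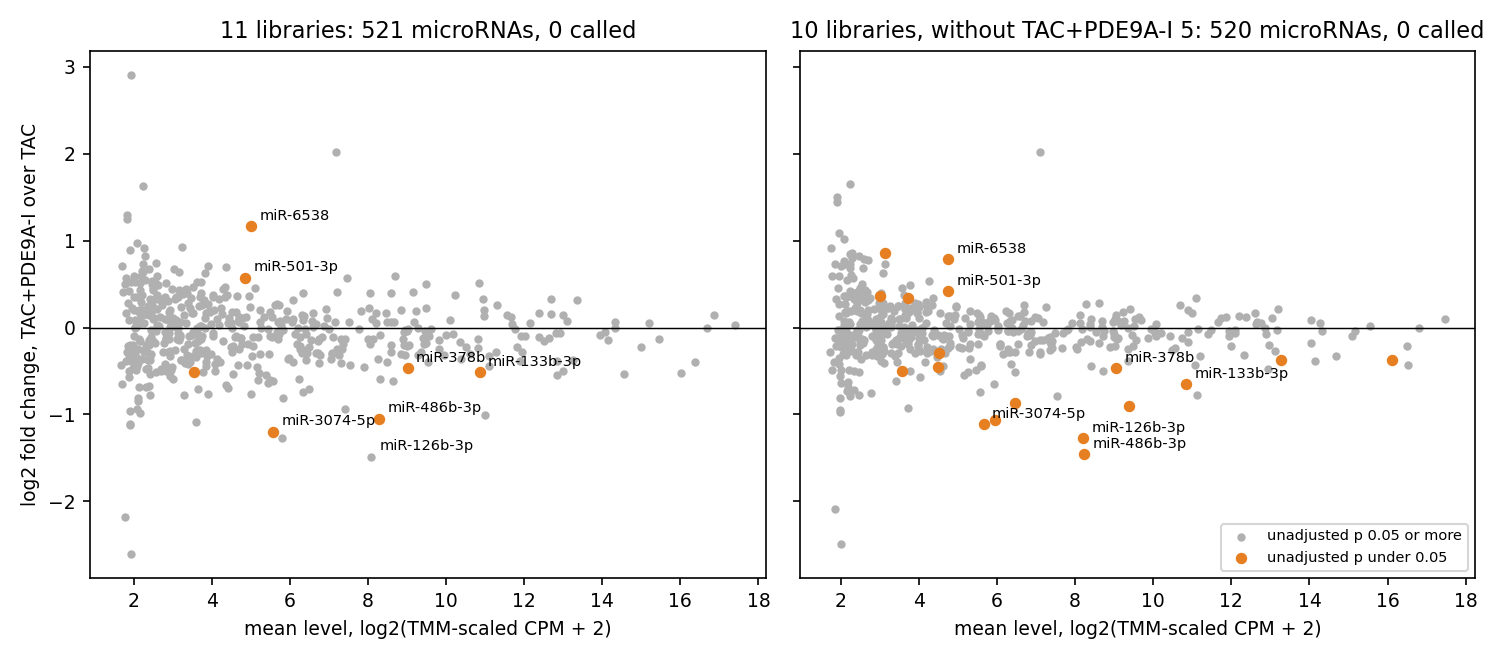
Log2 fold change of TAC+PDE9A-I over TAC (y axis) against the mean level, log2(TMM-scaled CPM + 2) (x axis), 1 point per microRNA, for 11 libraries (left, 521 microRNAs) and for 10 without TAC+PDE9A-I 5 (right, 520). Orange points have an unadjusted p under 0.05 (7 on the left, 18 on the right), no point passed the adjusted threshold of edgeR, and the labelled points are among those described in the text.

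The 95% intervals, which are not adjusted for the number of microRNAs, show how closely each difference was measured. The median half-width of the 95% interval was 0.84 on the log2 scale (1.79-fold) with 11 libraries and 0.55 (1.46-fold) with 10. Calls needed the adjusted p, so differences larger than these half-widths could be missed. An example is miR-486b-3p, at -1.45 with 10 libraries and an edgeR adjusted p of 0.277. The interval lay wholly within 2-fold either way for 214 of 521 microRNAs (41.1%) with 11 libraries and for 359 of 520 (69%) with 10, and among those with a TAC mean of at least 10 CPM for 183 of 307 (59.6%) and 263 of 307 (85.7%). The narrower intervals go with the spread: the median SD of the log2 level over 308 microRNAs was 0.29 in TAC, 0.53 in the 6 treated libraries and 0.30 in the 5 without replicate 5.

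The microRNA with the smallest p in both fits was miR-3074-5p, cut from hairpins at chr8:84208825-84208907 and chr13:63301199-63301283 (minus strand, GRCm38.p6), the second in an intron of Fancc, a DNA-repair gene. It measured 87.8, 62.6, 62.7, 81.6 and 34.1 CPM in TAC 1 to 5 (CPM on the TMM scale, here and below), and the 6 treated libraries had a lowest, median and highest level of 15.4, 31.9 and 36.1. Of the treated libraries 5 lay below the lowest TAC library, and only TAC+PDE9A-I 1 overlapped the TAC range, through TAC 5. Means were 65.8 ± 21 (SD, n = 5) and 28.5 ± 7.78 (SD, n = 6), with 41.3 ± 4.68 (SD, n = 5) in Sham. Its log2 fold change was -1.20 ± 0.28 (SE), with a 95% interval of -1.81 to -0.59, an unadjusted p of 0.00109 and an edgeR adjusted p of 0.569. Without TAC+PDE9A-I 5 it was -1.12 ± 0.25 (SE; adjusted p = 0.277). Leaving out TAC 5 as well gave an edgeR adjusted p of 0.026, and leaving out TAC 5 alone gave 0.129. Over all the settings tried the adjusted p ran from 0.0191 to 1 with 11 libraries and from 0.0108 to 0.93 with 10, while the fold change stayed between -1.34 and -0.85.

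miR-24-3p, whose hairpins lie opposite those of miR-3074, can pair with miR-3074-5p over 20 consecutive bases, as the sequences above show. It is named after its values were seen. Its mean was 2561 ± 330 CPM (SD, n = 5) in TAC and 1884 ± 634 (SD, n = 6) in TAC+PDE9A-I, and the log2 fold change was -0.44 ± 0.26 (SE), or -0.33 ± 0.17 with 10 libraries. Both members of the antisense pair thus had lower means in the treated hearts, with the size of difference greater in miR-3074-5p, a contrast that was not tested. The sources used here do not say whether the counting used the strand, and without it reads of the overlapping hairpins could be shared between them.

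miR-486b-3p, from the miR-486 hairpins that sit in the ankyrin-1 gene Ank1, measured 740, 449, 357, 390 and 216 CPM in TAC 1 to 5. Which cells of the tissue it came from was not tested. The treated libraries had a lowest, median and highest level of 104, 190 and 435, and the highest was TAC+PDE9A-I 5. The other 5 treated libraries, at 104 to 202, all lay below every TAC library, although the highest of them was close to TAC 5. The log2 fold change was -1.05 ± 0.39 (SE; interval -1.90 to -0.19, edgeR adjusted p = 0.985) with 11 libraries. Without TAC+PDE9A-I 5 the change was -1.45 ± 0.33 (interval -2.18 to -0.73, adjusted p = 0.277), which is 2.74-fold lower. In a fit of 20 libraries of all 4 groups the adjusted p was 0.0252, and over the settings tried with 10 libraries it ran from 0.0108 to 0.93. Sham libraries lay at 455 to 593 CPM, above each treated library.

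The other miR-486 strands were measured as well. miR-486a-3p, named after its values were seen, had a log2 fold change of -0.40 with 11 libraries and -0.90 ± 0.27 (SE; adjusted p = 0.836) with 10. miR-486b-5p, the abundant arm, had means of 106236 ± 28686 CPM (SD, n = 5) and 105652 ± 61739 (SD, n = 6), a log2 fold change of -0.01 ± 0.35 with 11 libraries and -0.43 ± 0.23 with 10. The level in TAC+PDE9A-I 5 was 226807 CPM, where the other treated libraries had 54983 to 97774. The 486a and 486b copies are nearly identical, so the division of reads between them is uncertain.

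miR-126b-3p comes from the strand opposite miR-126a, the endothelial microRNA hosted by Egfl7, at chr2:26591363-26591420. It measured 606, 369, 335, 536 and 214 CPM in TAC 1 to 5 and 0 to 262 in the treated libraries, with a median of 143. The 0 was in TAC+PDE9A-I 5, where the floor was 1.94 CPM, and of the other 5 only TAC+PDE9A-I 2 reached the TAC range. With 11 libraries the log2 fold change was -1.49 ± 0.80 (SE; interval -3.24 to 0.26), and it was -1.27 ± 0.31 (interval -1.94 to -0.59, edgeR adjusted p = 0.289) with 10. Over the settings tried the adjusted p ran from 0.289 to 1 with 11 libraries and from 0.0161 to 0.998 with 10. The other arm, miR-126b-5p, had a log2 fold change of -0.60 ± 0.38 and -0.44 ± 0.27. miR-126a-3p itself, the arm that marks endothelium, had means of 7969 ± 1593 CPM (SD, n = 5) and 7612 ± 3570 (SD, n = 6), with log2 fold changes of -0.07 and 0.11 in the 11-library and 10-library fits. Its sister arm miR-126a-5p, named after its values were seen, had -0.54 and -0.32. miR-126a-3p shares a run of 10 bases with miR-126b-3p, and with strand use not given the division of reads between the hairpins is uncertain.

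Among the muscle microRNAs, miR-133b-3p measured 1701, 3088, 2260, 2242 and 1836 CPM in TAC 1 to 5, and 949, 1603 and 2096 were the lowest, median and highest treated levels. The treated libraries lay in the lower part of the TAC range or below it, with 3 of 6 under the lowest TAC library and TAC+PDE9A-I 6 level with it (1700.4 against 1700.5 CPM). Its log2 fold change was -0.52 ± 0.23 (SE; edgeR adjusted p = 0.985), and -0.65 ± 0.20 with 10 libraries (adjusted p = 0.836). miR-133a-3p, its close relative, had means of 112907 ± 31097 (SD, n = 5) and 125190 ± 34599 CPM (SD, n = 6) and log2 fold changes of 0.15 ± 0.25 and -0.01 ± 0.22. The relatives are near-identical, so reads could be split between them, and the difference between their fold changes was not tested.

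miR-378b, of the miR-378 family known from energy metabolism, measured 703, 716, 527, 560 and 521 CPM in TAC 1 to 5. The treated libraries had a lowest, median and highest level of 376, 392 and 545, with 4 of 6 below the lowest TAC library. The log2 fold change was -0.46 ± 0.18 (SE; adjusted p = 0.985) and -0.46 ± 0.17 with 10 libraries. The family members miR-378a-3p and miR-378c had log2 fold changes of 0.05 and -0.15 with 11 libraries, and miR-378c shares a run of 19 bases with miR-378b, so this division of reads is uncertain as well. Sham libraries lay at 756 to 855 CPM for miR-378b, above all 11 libraries of the comparison.

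On the higher side, miR-501-3p, from an intron of the chloride-transporter gene Clcn5 at chrX:7241243-7241351, measured 22, 19.6, 21, 20.02 and 23.1 CPM in TAC 1 to 5. The treated libraries had a lowest, median and highest level of 20.2, 30.2 and 45.1, and 5 of 6 lay above the highest TAC library. The log2 fold change was 0.57 ± 0.22 (SE; interval 0.10 to 1.05, adjusted p = 0.985) and 0.42 ± 0.18 with 10 libraries. All 5 Sham libraries, at 11.96 to 15.1 CPM, lay below all 11 others. miR-500-3p, which has the same seed, had log2 fold changes of 0.17 and 0.09, and the other arm, miR-501-5p, had -0.32 and -0.14.

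miR-6538 measured 20.2, 17.6, 26.2, 13.8 and 11.6 CPM in TAC 1 to 5, and 16.8, 38.7 and 84.4 were the lowest, median and highest treated levels. Its log2 fold change was 1.17 ± 0.42 (SE; adjusted p = 0.985) with 11 libraries and 0.79 ± 0.33 with 10, and the highest value was that of TAC+PDE9A-I 5. Its 19 bases are 94.7% G or C, which goes with the GC shift of that library given above, and the part of GC content in this difference was not tested. Of the remaining microRNAs with small p-values on this side, miR-3470b had log2 fold changes of 0.69 ± 0.36 and 0.53 ± 0.36. miR-221-5p had 0.25 ± 0.24 and 0.35 ± 0.15, while miR-221-3p, the abundant arm, had -0.17 and -0.21.

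**Figure D2:**
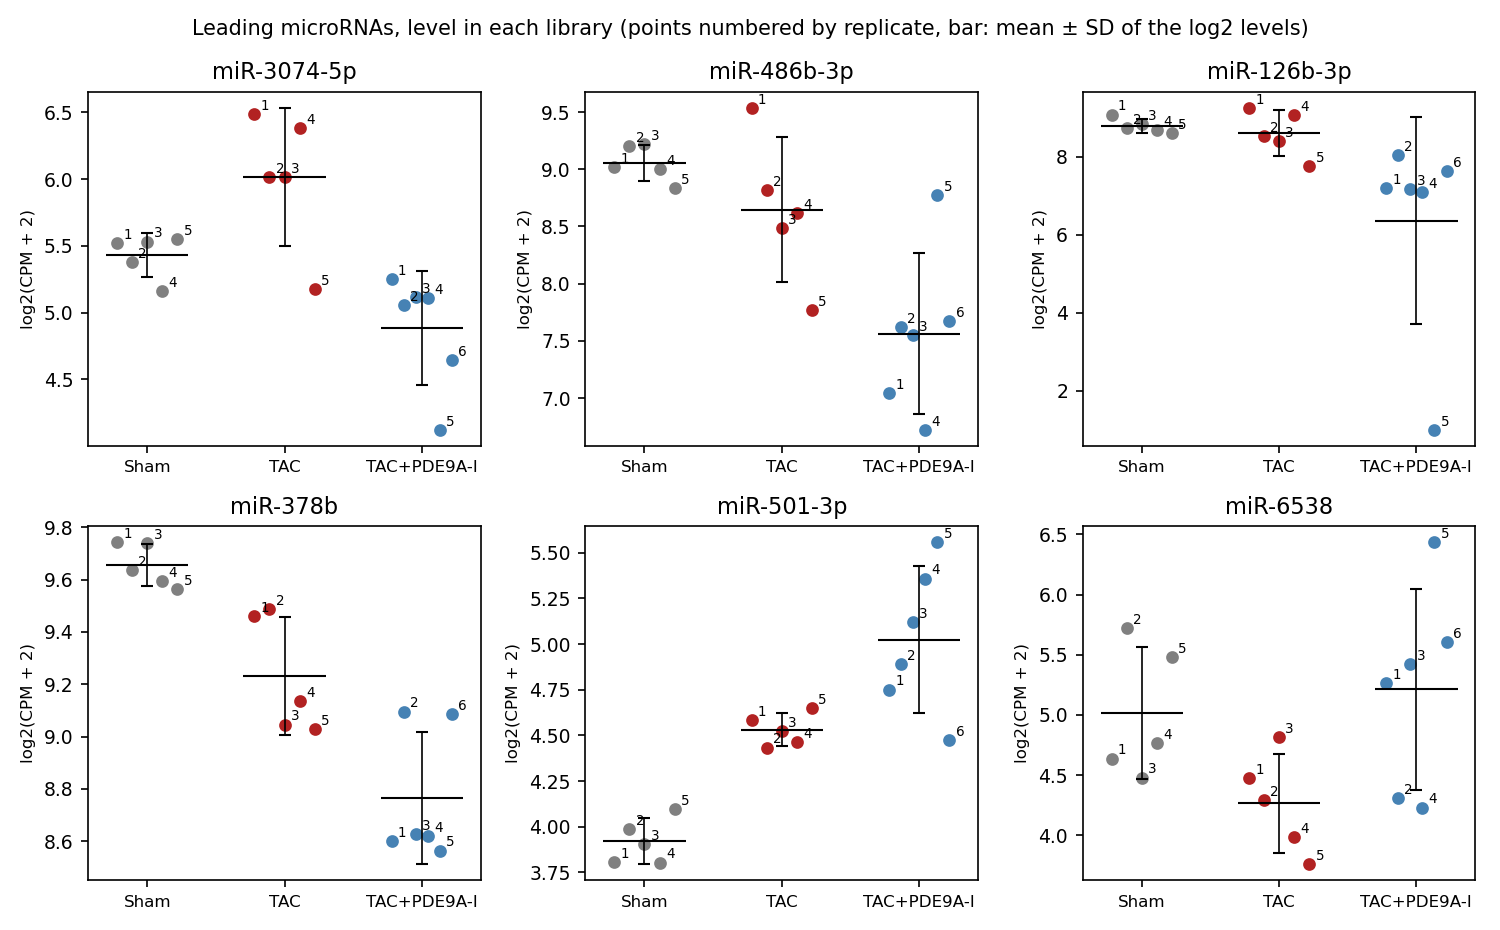
Level of 6 microRNAs with small p-values in each library, log2(TMM-scaled CPM + 2) on the y axis (a separate range in each panel, not starting at 0), by group on the x axis. Points are libraries numbered by replicate, and bars are the mean ± SD of the log2 levels. For miR-3074-5p 5 of 6 treated libraries lie below every TAC library, for miR-486b-3p all but replicate 5 do, and for miR-501-3p 5 of 6 lie above the TAC range.

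The microRNAs known for hypertrophy showed wide spread among treated hearts. miR-208b-3p, from an intron of Myh7 at chr14:54975700-54975776, measured 3026, 1490, 3438, 4399 and 1638 CPM in TAC 1 to 5, against 115 to 167 in Sham. Treated replicates 1 to 6 measured 1906, 1207, 1601, 3024, 65.6 and 568 CPM. Thus 3 of the 6 overlapped the TAC range, replicates 2 and 6 lay between TAC and Sham, and replicate 5 lay below Sham. The log2 fold change was -1.0 ± 0.67 (SE; interval -2.47 to 0.46, edgeR adjusted p = 0.985) with 11 libraries and -0.78 ± 0.42 (interval -1.72 to 0.15) with 10. The other arm, miR-208b-5p, had 2.59 to 3.80 CPM in TAC, 0 to 2.67 in TAC+PDE9A-I and 0 in all 5 Sham libraries, with log2 fold changes of -0.85 ± 0.54 and -0.68 ± 0.35.

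miR-21a-5p, the fibroblast-associated microRNA that overlaps Vmp1, measured 8847, 5675, 10337, 17392 and 5884 CPM in TAC 1 to 5, and 2528 to 2889 in Sham. Treated replicates 1 to 6 measured 8291, 5336, 8531, 15973, 179 and 2557 CPM. Replicates 1 to 4 lay in or just below the TAC range, replicate 6 was at the Sham level and replicate 5 far under it. For this microRNA the log2 fold change was -0.50 ± 0.74 (SE; interval -2.11 to 1.12) with 11 libraries and -0.27 ± 0.45 (interval -1.25 to 0.72) with 10. miR-146b-5p, known for feedback on inflammatory signalling, had means of 230 ± 135 (SD, n = 5) and 120 ± 65.5 CPM (SD, n = 6). Its log2 fold changes were -0.94 ± 0.51 and -0.78 ± 0.44 (interval -1.76 to 0.19), with treated libraries from 28.5 to 193 CPM and TAC libraries from 98.6 to 406.

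Stromal microRNAs also varied widely among the treated libraries. miR-199a-5p, carried by the antisense transcript Dnm3os, measured 508 to 927 CPM in TAC and 155 to 201 in Sham, and 747, 350, 787, 1351, 111 and 207 in treated replicates 1 to 6. miR-214-3p of the same transcript measured 156 to 337 CPM in TAC, and 246, 132, 406, 599, 208 and 83.2 in treated replicates 1 to 6. For both, TAC+PDE9A-I 4 was the highest of the 11 libraries. The log2 fold changes were -0.28 ± 0.53 and -0.09 ± 0.42 for miR-199a-5p and 0.09 ± 0.45 and 0.14 ± 0.46 for miR-214-3p, which in the fit with ear-tag range became -0.38 and -0.35. miR-34c-5p, of the p53-responsive miR-34 family, had log2 fold changes of -0.41 ± 0.53 and -0.24 ± 0.47, with treated libraries from 37.1 to 262 CPM.

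How each treated heart stood on the TAC-to-Sham scale was described with 54 microRNAs that had a TAC mean of at least 10 CPM and lay higher in all 5 TAC than in all 5 Sham libraries. This set was chosen on the TAC and Sham libraries used here, and its counts are a description without a test. In TAC+PDE9A-I 3 and 4, 51 and 46 of the 54 were in or above the TAC range, and in replicates 1 and 2, 33 and 21 were. In TAC+PDE9A-I 6 only 3 of 54 were in or above the TAC range and 39 were at or below the highest Sham library. TAC+PDE9A-I 5 had 31 at or below the highest Sham library and 18 in or above the TAC range. Replicate 6 had 4785164 counts, 518 microRNAs with counts and a median correlation with the other libraries of 0.968, each the lowest of the 10. Its GC content was 44.8%. Without replicate 6, the median over the textbook list of microRNAs raised in hypertrophy was -0.08 in place of -0.19 with 11 libraries, and -0.01 in place of -0.14 with 10. Other single libraries moved this median more: it was -0.44 with 11 libraries without TAC+PDE9A-I 4, and 0.06 with 10 without TAC 4.

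**Figure D3:**
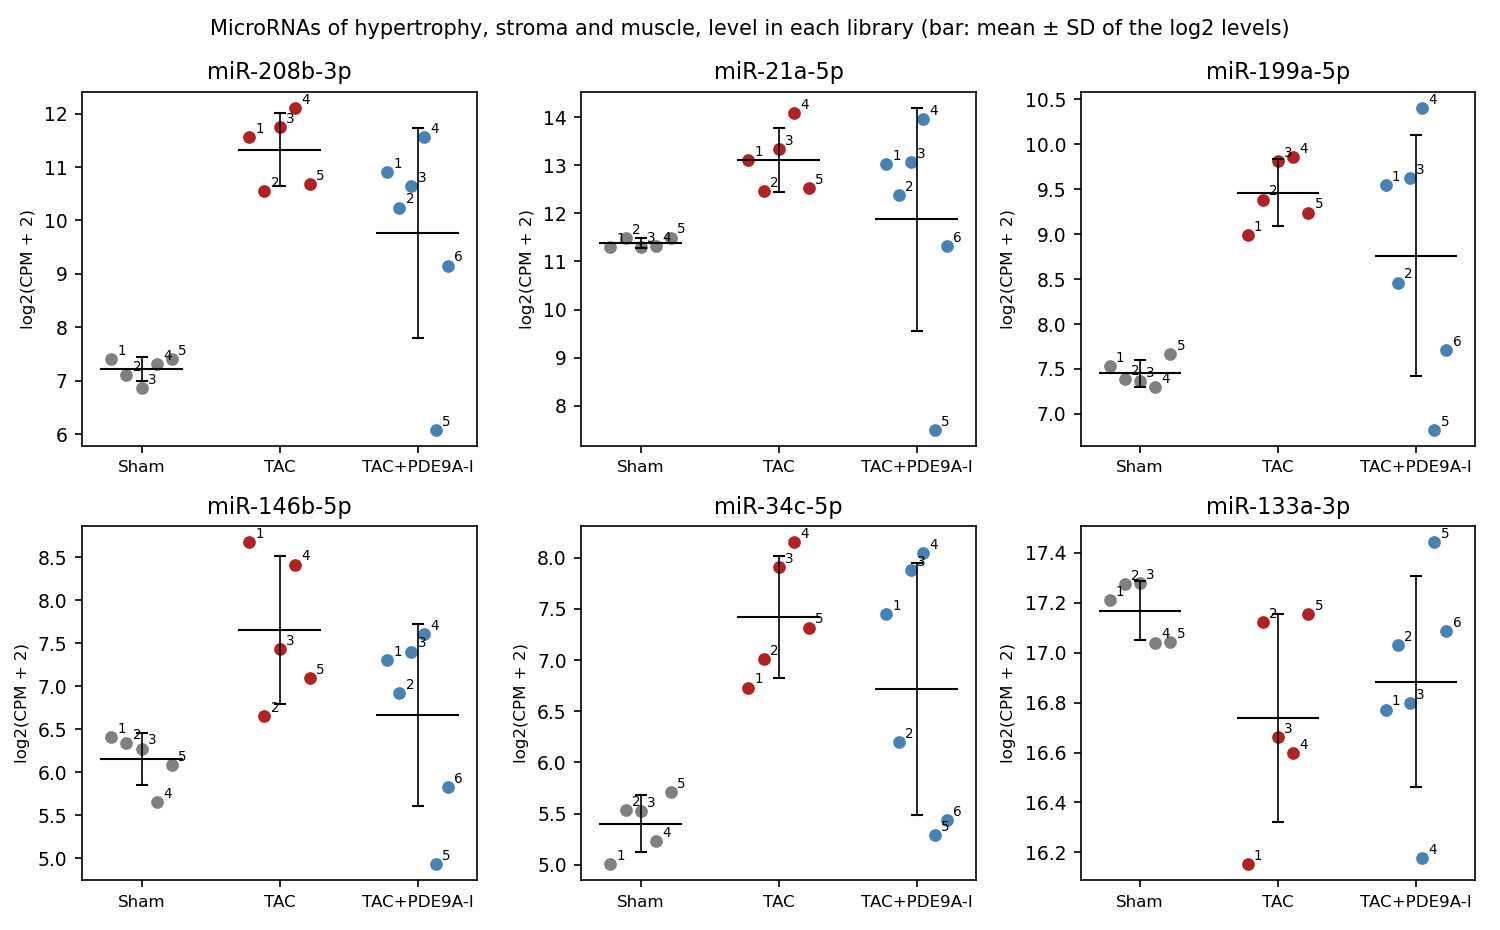
Level of 6 microRNAs of hypertrophy, stroma and muscle in each library, log2(TMM-scaled CPM + 2) on the y axis (a separate range in each panel, not starting at 0), by group on the x axis, with points numbered by replicate and bars for the mean ± SD of the log2 levels. Treated replicates 1, 3 and 4 sit within or beside the TAC points for miR-208b-3p, miR-21a-5p, miR-199a-5p and miR-34c-5p, and replicates 5 and 6 sit near or below the Sham points for the last 3 of these.

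For miR-208a-3p, miR-499-5p and miR-1a-3p, also of cardiac muscle, the log2 fold changes were smaller than their SE in both fits. The intervals were wide: they lay within 2-fold for 0 of 6 myosin-intron microRNAs with 11 libraries and for 4 with 10. miR-208a-3p, from an intron of the adult myosin gene Myh6, had 497 ± 115 CPM (SD, n = 5) in TAC and 454 ± 343 (SD, n = 6) in TAC+PDE9A-I, with log2 fold changes of -0.13 ± 0.62 and 0.10 ± 0.33. miR-499-5p, in an intron of Myh7b, had 620 ± 224 (SD, n = 5) and 618 ± 425 CPM (SD, n = 6), with 0.00 ± 0.58 and 0.22 ± 0.34. miR-1a-3p had log2 fold changes of -0.29 ± 0.66 and -0.07 ± 0.32. In TAC+PDE9A-I 5 these 3 stood at 20.5, 44.5 and 112 CPM, each below all the other 10 libraries.

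The intervals of the abundant miR-22-3p, miR-29a-3p and miR-378a-3p stayed within 2-fold either way in both fits. The other microRNAs of this paragraph are listed whatever their level or interval. miR-22-3p, which is required for the hypertrophic response of the heart in mice, had 172389 ± 22678 CPM (SD, n = 5) in TAC and 175342 ± 39590 (SD, n = 6) in TAC+PDE9A-I. Its log2 fold change was 0.02 ± 0.20 (interval -0.41 to 0.46), and 0.10 ± 0.13 (interval -0.19 to 0.38) with 10 libraries. miR-29a-3p, of the family that represses collagens, had log2 fold changes of 0.05 ± 0.23 and 0.13 ± 0.16 (interval -0.23 to 0.49), and miR-378a-3p had 0.05 ± 0.17 and -0.04 ± 0.16 (interval -0.39 to 0.30). miR-30a-5p had -0.23 ± 0.30 and -0.10 ± 0.19, and miR-34a-5p had -0.13 ± 0.18 and -0.19 ± 0.17. For miR-132-3p and miR-212-5p, a pair known to promote hypertrophy, the values were 0.06 and -0.05, and -0.30 and -0.27. miR-29b-3p, with the seed of miR-29a-3p, had -0.21 ± 0.47 and 0.00 ± 0.23, and miR-29b-2-5p had 0.33 and 0.21.

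**Figure D4:**
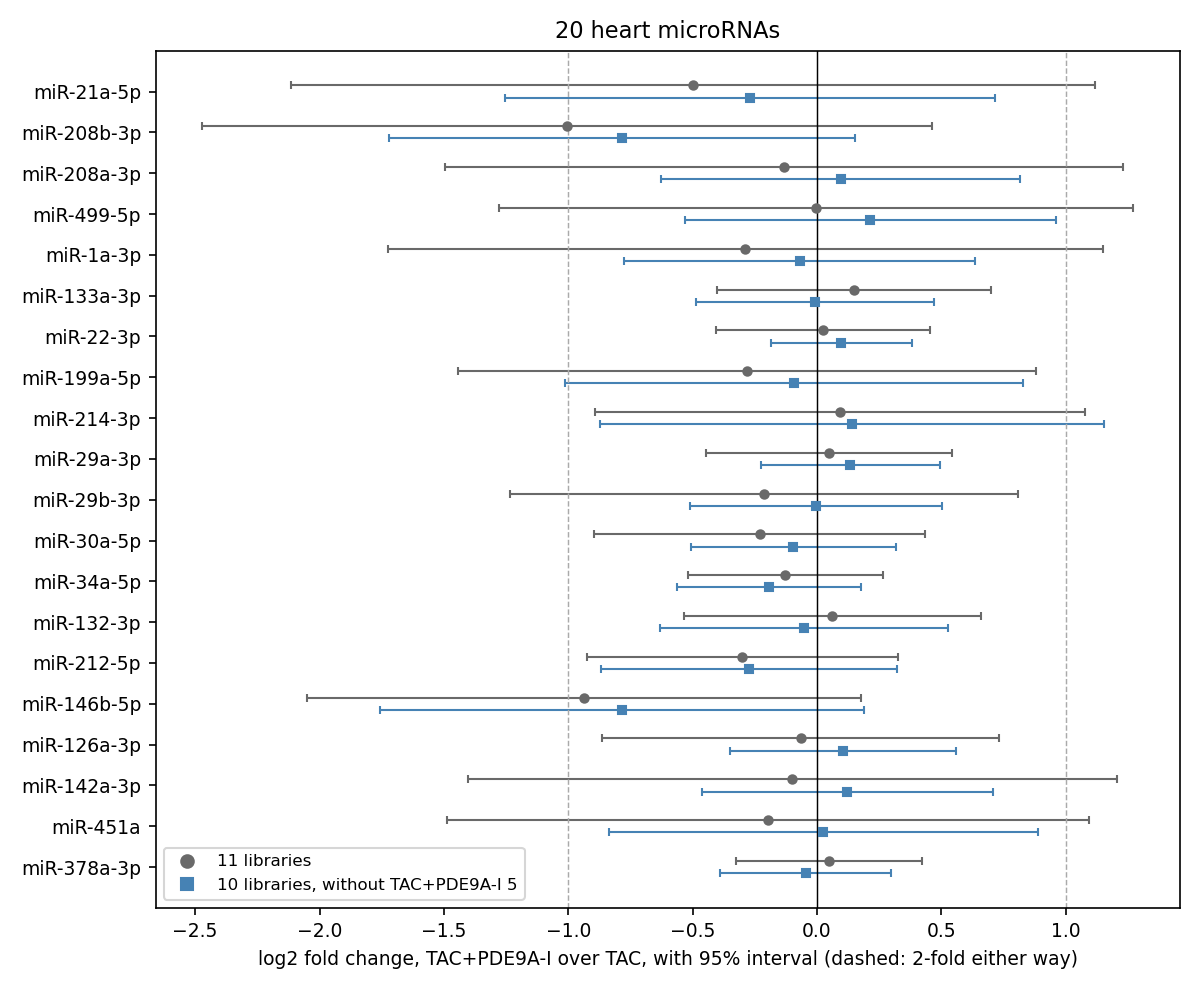
Log2 fold change of TAC+PDE9A-I over TAC with its 95% interval (x axis) for 20 heart microRNAs (y axis), with 11 libraries (grey circles) and with 10, without TAC+PDE9A-I 5 (blue squares). Dashed lines mark 2-fold either way. Every interval crosses 0, and those of miR-22-3p, miR-29a-3p and miR-378a-3p are among the intervals that stay within 2-fold in both fits.

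Markers of other cell types gave the following. The leukocyte microRNAs miR-142a-3p and miR-155-5p had log2 fold changes of -0.10 ± 0.60 and 0.17 ± 0.15 with 11 libraries and 0.12 ± 0.27 and 0.13 ± 0.12 with 10. The red-cell microRNAs miR-451a and miR-144-3p had -0.20 ± 0.59 and -0.74 ± 0.71, and 0.03 ± 0.39 and -0.52 ± 0.56. miR-143-5p, the scarcer arm of a smooth-muscle microRNA, had 0.18 ± 0.18 and 0.17 ± 0.16. The abundant arm, miR-143-3p, named after its values were seen, measured 74415 to 144495 CPM in TAC. It measured 62068 to 99370 CPM in the treated libraries other than TAC+PDE9A-I 5, which had 9961. On the smooth-muscle list 3 of 4 tested members were positive in each fit, and the lowest log2 fold changes were -0.40 and -0.22. miR-200c-3p, an epithelial microRNA, was at or under 4.56 CPM in all 11 libraries and had 0.82 ± 0.67 and 0.74 ± 0.66. Of the 24 named markers of other tissues 12 were at 0 in all 11 libraries, and the list summed to 33.7 to 57.7 CPM in TAC and 18.2 to 88.4 in TAC+PDE9A-I. Summed levels of the other marker lists differed between the groups by less than the SD of the treated libraries. The summed leukocyte markers were at 2282 ± 521 CPM (SD, n = 5) in TAC and 2454 ± 327 (SD, n = 6) in TAC+PDE9A-I, the red-cell markers at 762 ± 320 and 635 ± 488, the smooth-muscle markers at 98820 ± 28210 and 75200 ± 34350, and the endothelial markers at 37240 ± 7759 and 27640 ± 14980. In TAC+PDE9A-I 5 the red-cell, smooth-muscle and endothelial sums were 57, 10640 and 2873 CPM, the lowest of the treated libraries. Its leukocyte sum, 2811 CPM, was the highest of them, and its members went both ways. miR-142a-3p stood at 32.5 CPM there, against 556 to 1271 in the other treated libraries. miR-150-5p, named after its values were seen, stood at 2641, against 719 to 1486. Without TAC+PDE9A-I 5 the treated means were 751 ± 444 (SD, n = 5), 88110 ± 14990 and 32600 ± 9823 CPM, and 2382 ± 309 for leukocytes.

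By list, edgeR called no member of any of the 23 lists in the 11-library or 10-library fit, against 0% over all microRNAs. DESeq2 with 10 libraries called miR-486b-3p of the muscle list and miR-126b-3p of the endothelial list lower, and edgeR's fit of 20 libraries called miR-486b-3p. Over all tested microRNAs the log2 fold change had a median of -0.06 with 11 libraries (229 positive, 292 negative) and -0.04 with 10 (224 positive, 296 negative). Upper-quartile scaling moved these medians to 0.13 and 0.07 and the negative share from 56% to 38.2%, and from 56.9% to 37.9%. Total-count scaling gave negative shares of 48.2% and 39.6%, so the excess of negative values depended on the scaling. List medians below are therefore to be read against the median of all, and the difference from it is printed for some lists only. The other scalings and the leaving out of each library in turn were chosen for the lists after the data were seen. Leaving out 1 library turned the sign of the median for 9 of the 23 lists with 11 libraries and for 12 with 10, and the ranges are given beside the medians.

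The list with the most members was the imprinted Dlk1-Dio3 cluster on chromosome 12, a run of microRNAs transcribed from the maternal chromosome and high in fetal tissue. Of 110 names, 50 were tested with 11 libraries, with 39 negative and a median of -0.32, and 51 with 10 libraries, with 42 negative and a median of -0.27. The list median was 0.25 and 0.23 below that of all microRNAs, and it was negative under each of the 4 scalings and without each library (-0.40 to -0.19, and -0.34 to -0.17). Its member with the smallest p, miR-379-5p, measured 28.9, 21.9, 23.7, 31.3 and 22.3 CPM in TAC 1 to 5 and 8.56, 17.4 and 25.03 as the lowest, median and highest treated level. Its log2 fold change was -0.54 ± 0.27 (SE; adjusted p = 0.985), and -0.44 ± 0.21 with 10 libraries. The summed level of the cluster was 3675 ± 537 CPM (SD, n = 5) in TAC and 2865 ± 1070 (SD, n = 6) in TAC+PDE9A-I, a difference within the spread of the treated libraries.

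Of the lists tied to hypertrophy, the 27 microRNAs that textbook accounts give as raised had 20 negative members in each fit and medians of -0.19 and -0.14. Both stayed negative under each of the 4 scalings, but over single libraries left out they ran from -0.44 to -0.08 and from -0.22 to 0.06, the last without TAC 4. The 21 given as lowered had medians of -0.05 and 0.00, with 0.07 for the former under upper-quartile scaling and ranges of -0.14 to 0.03 and -0.07 to 0.14 over libraries left out. The 15 tested of 19 striated-muscle microRNAs had medians of -0.13 and -0.38, of which the former became 0.04 under upper-quartile scaling, with ranges of -0.38 to -0.05 and -0.46 to -0.20. In the 11-library fit the lowest members were miR-486b-3p and the miR-208b arms. The miR-34 family had 5 of 5 tested members negative in both fits under TMM, with medians of -0.27 and -0.19. Upper-quartile scaling put miR-34a-5p at 0.13 with 11 libraries, and with 10 libraries total-count and upper-quartile scaling each left 4 of 5 negative. Without TAC+PDE9A-I 6 the 10-library median was -0.01, and the 11-library median was -0.17.

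The endothelial list, made of 4 arms of miR-126a and miR-126b, had medians of -0.57 and -0.38, which ran from -0.79 to -0.38 and from -0.59 to -0.20 over libraries left out. The miR-101 family had -0.34 and -0.13, the latter becoming 0.01 under upper-quartile scaling and 0.09 without TAC+PDE9A-I 3, and its member miR-101a-5p had -0.39 and -0.27. The miR-322/miR-503 cluster had -0.26 and -0.11, with 0.02 for the latter under upper-quartile scaling and 0.03 without TAC 4, and its member miR-503-3p had 0.28 in both fits. miR-146, with 2 tested members, had -0.48 and -0.36, which became -0.27 and -0.10 without TAC 1 and -0.34 and -0.19 without TAC+PDE9A-I 6. The miR-221/miR-222 pair had -0.13 and -0.17, with 0.11 for the former under upper-quartile scaling and ranges of -0.25 to -0.04 and -0.25 to -0.08 over libraries left out. Its member miR-222-5p had -0.41 and -0.33.

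The let-7 family, known for limiting cell growth, had medians of -0.09 and -0.04, and its member with the smallest p, let-7d-5p, had 0.33 ± 0.20 and 0.20 ± 0.16. The miR-30 family had -0.01 and -0.03 (miR-30c-1-3p 0.39 and 0.19), the collagen-repressing miR-29 family -0.05 and 0.13, the miR-15/16 family -0.13 and 0.02 (miR-15b-3p -0.39 and -0.19) and the growth-promoting miR-17-92 cluster -0.01 and 0.08 (miR-18a-3p 0.54 and 0.41). With 10 libraries the miR-29 median was 0.18 above that of all microRNAs and that of miR-17-92 was 0.12 above. Under upper-quartile scaling the let-7 and miR-30 medians were positive in both fits (0.10 and 0.07, and 0.22 and 0.09), and the 11-library medians of miR-29 and miR-17-92 became 0.07 and 0.20. Over libraries left out from the 11, the medians of the 5 families lay between -0.23 and 0.13, and from the 10 between -0.09 and 0.18.

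The medians of the remaining lists lay on both sides of 0. With 11 libraries they were -0.10 for the myosin-intron microRNAs (-0.43 to 0.09 over libraries left out), 0.00 for miR-212/miR-132 (-0.12 to 0.24), -0.19 for miR-199/miR-214 (-0.54 to -0.01), 0.12 for smooth muscle (-0.01 to 0.25), 0.17 for leukocytes (-0.11 to 0.20), -0.22 for red cells (-0.62 to -0.01), 0.14 for other tissues (0.01 to 0.22; 6 of 24 tested) and 0.05 for the miR-378 family (-0.12 to 0.09). With 10 libraries they were 0.09 (-0.18 to 0.22), -0.04 (-0.17 to 0.21), -0.04 (-0.31 to 0.16), 0.17 (0.05 to 0.27), 0.04 (-0.05 to 0.14), -0.02 (-0.41 to 0.26), 0.19 (0.12 to 0.34) and -0.12 (-0.21 to 0.01) in the same order. For miR-199/miR-214 the least negative and the highest of these values, -0.01 and 0.16, were those without TAC+PDE9A-I 6, and for smooth muscle the lowest, -0.01 and 0.05, were those without TAC 1. Under upper-quartile scaling the sign turned for the myosin-intron list with 11 libraries (0.02), and with 10 libraries for miR-212/miR-132 (0.09), miR-199/miR-214 (0.04), red cells (0.15) and miR-378 (0.01).

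**Figure D5:**
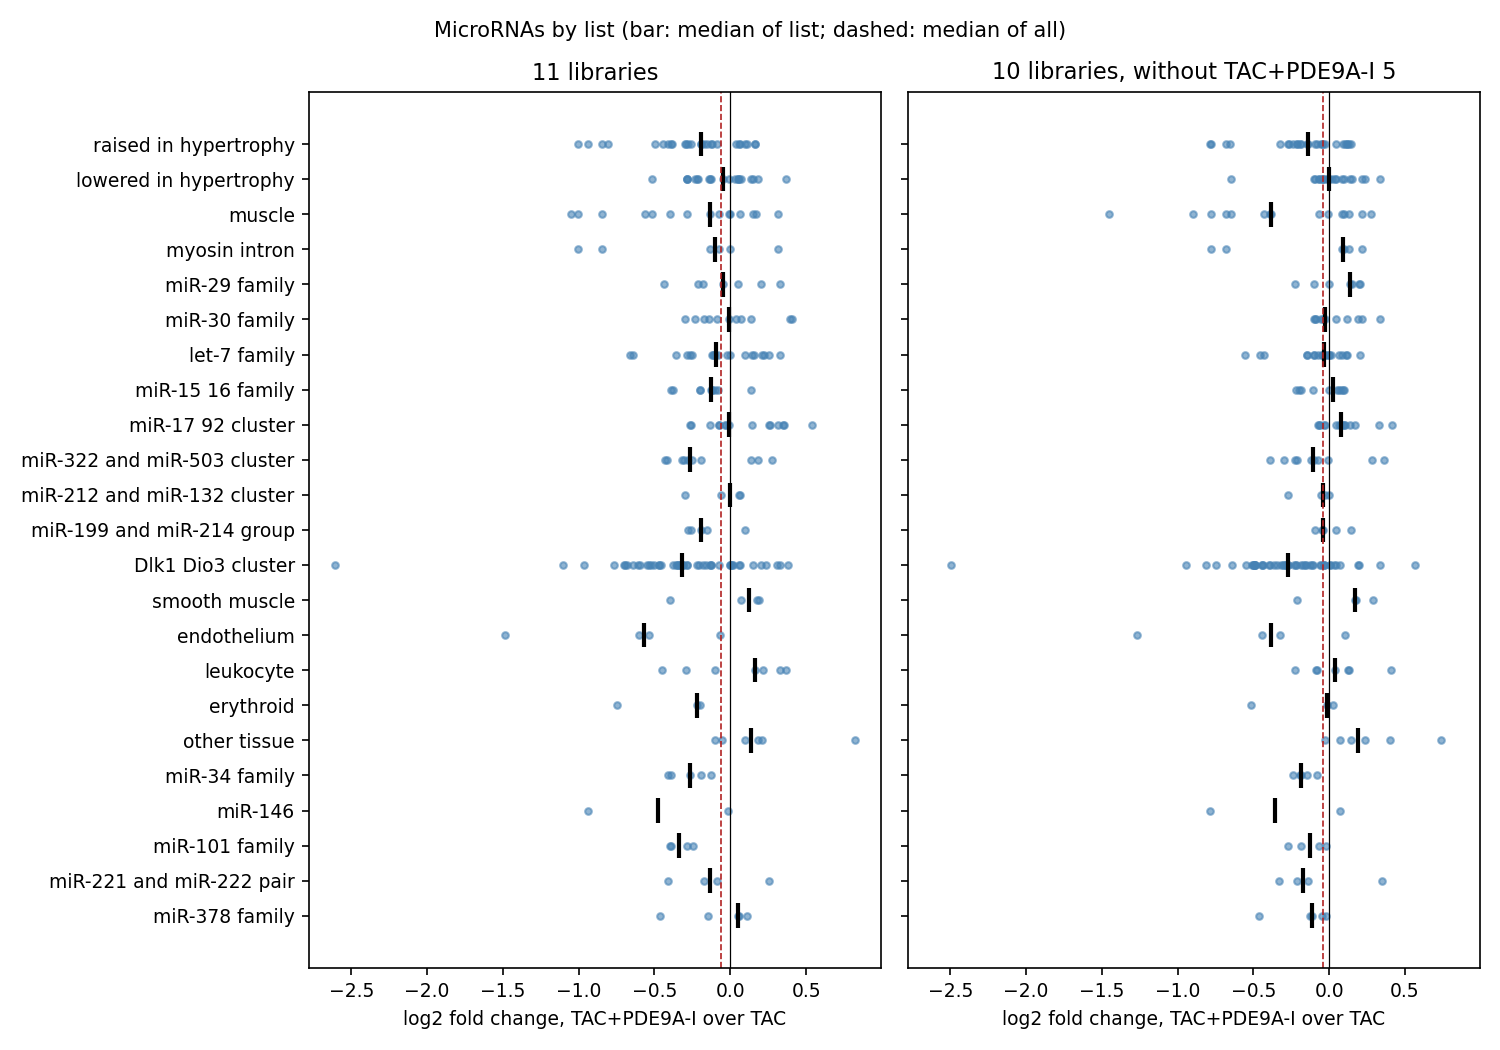
Log2 fold change of TAC+PDE9A-I over TAC (x axis) of each tested microRNA (points) in 23 lists (y axis), with 11 libraries (left) and with 10, without TAC+PDE9A-I 5 (right). Black bars are list medians and the dashed line is the median of all microRNAs. The list medians farthest from that line on the left are those of the endothelial list (-0.57) and miR-146 (-0.48), and edgeR called no member in either fit.

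The ear tags fell into 3 ranges that were spread unevenly: TAC had 2 mice in the 100s, 1 in the 500s and 2 in the 600s, and TAC+PDE9A-I had 1, 4 and 1. The sources used here do not say what a range stands for. With the range as a covariate, edgeR called 0 microRNAs in both fits, with smallest adjusted p-values of 0.995 and 0.828. Within the 3 ranges the difference of mean log2 level of miR-3074-5p was -1.0, -1.16 and -1.13. That of miR-486b-3p was -2.13, -0.82 and -0.52, and that of miR-126b-3p was -1.70, -2.57 and -0.78. TAC+PDE9A-I 5 is among the treated mice of the 500s, and without it the values of that range were -0.92, -1.19 and -0.96 for these 3 microRNAs. All 3 were thus lower in the treated mice of each range, with and without that library, on 1 to 4 mice a group. For miR-208b-3p the differences were -0.16, -2.12 and -2.24, and for miR-21a-5p 0.23, -1.61 and -1.98, of which the 500s values became -0.93 and -0.20 without TAC+PDE9A-I 5. For miR-133b-3p they were -0.74, -0.59 and -0.25 (500s without that library, -0.75), for miR-378b -0.87, -0.32 and 0.00 (-0.27), and for miR-501-3p 0.24, 0.71 and -0.08 (0.60). For miR-6538 they were 0.88, 0.28 and 1.73, and the 500s value turned to -0.16 without that library.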

How the data were processed

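Small RNA from flash-frozen left ventricle was sequenced, with libraries made from 500 ng of total RNA per the labels' protocols. The authors deposited 1 merged table of whole-number microRNA counts, not normalized, and the submitters' processing notes list, with no order or purpose, the tools DESeq 1.26.0, Bowtie 1.1.1, CASAVA 1.8.4 and cutadapt 1.8. The sources used here do not give the genome build, annotation or strand setting of the counting. Of 25958 lines, 24055 had no name and held 0 counts, and 1903 were named, 12 of them joining several microRNAs under 1 name; of these, 781 had counts in the 11 libraries. The smallest value above 0 was 2.

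Counts were fitted with edgeR 4.0.16 (R 4.3.3): low-count filter by group, TMM scaling, robust quasi-likelihood test, Benjamini-Hochberg adjustment over all tested microRNAs, calls at 0.05, 95% intervals. Levels are TMM-scaled CPM, and log2 levels use a prior of 2. Alternatives were other scalings, DESeq2 1.42.0, limma 3.58.1 with voom, other filters, ear-tag range, replicate block, fits with more groups, and leaving out each replicate. DESeq2 gave 1 missing adjusted p in each fit. P-values measure the spread between these mice. Host genes were read from the GENCODE mouse annotation on the same build as the RefSeq hairpins.

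MicroRNAs were named by rule: 20 heart microRNAs, the 3 with the smallest p in each direction of each fit at a mean of at least 10 CPM, up to 4 per list, which gave the member with the smallest p here, and the other arms or seed relatives of these. The members and the 23 lists were chosen with earlier results of these data known. Library totals and GC content, the latter over microRNAs with a RefSeq sequence, were compared by exact 2-sided permutation tests. With 11 libraries p was 0.329 for totals and 0.926 for GC, and with 10 it was 0.603 and 0.31 (adjusted over the 4 tests, 0.658 to 0.926; the smallest p these designs allow is 0.00433 and 0.00794). The libraries of mice given the PDE5A inhibitor were not analysed here except in the fits of 21 and 20 libraries.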

Additional observations from a re-analysis of the deposited data

Results flagged for a closer look

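In each group, each named microRNA was checked for a library lying far from the others, and 5 of 96 such checks (5.2%) found one, where chance alone gives about 1 in 20. Of these, 3 were in TAC+PDE9A-I 5, the shallow library. There miR-486b-5p stood at 226800 CPM where the other treated libraries had 54980 to 97770, miR-486b-3p at 435.2 where they had 103.6 to 202, and miR-29b-3p at 8.556 where they had 64.01 to 96.87. The other two were in TAC: miR-29a-3p in TAC 1 at 2672 CPM, where the others had 4579 to 5223, and miR-101a-5p in TAC 2 at 26.41, where the others had 16.45 to 18.33.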

How the results depend on the processing

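Counts of calls were 0 under the alternatives except for microRNAs called lower by DESeq2's Wald test (1 with 11 libraries, 3 with 10), by the fit of 20 libraries (1), and on leaving out single libraries from the 10 (0 to 1, the 1 without TAC 5). With the replicate number as a block, edgeR called 0 with smallest adjusted p-values of 0.243 and 0.218 (513 and 530 tested). Same-numbered libraries deviated together little (r from -0.122 to 0.298, over 0.1 for 2 of 5, best with the own number for 1 of 5). These deviations are from group means that include TAC+PDE9A-I 5, and 5 pairs cannot decide whether the numbers pair the mice. Of 1002 refitted log2 fold changes with 11 libraries 62 changed sign, and of 954 with 10 libraries 84 did; 33 and 32 of the 48 microRNAs never changed sign, and the cause of the changes was not tested. Depth limits microRNAs near the floor of TAC+PDE9A-I 5.

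With 11 libraries the sign turned under total-count scaling for miR-499-5p (0.033) and miR-486b-5p (0.13). Under upper-quartile scaling it turned for miR-208a-3p (0.0022), miR-499-5p (0.10), miR-34a-5p (0.13), miR-126a-3p (0.089), miR-142a-3p (0.013), miR-221-3p (0.057) and miR-486b-5p (0.40). DESeq2 size factors in edgeR gave miR-499-5p (0.044) and miR-486b-5p (0.057), and the Wald test gave miR-499-5p (0.043) and miR-486b-5p (0.057). limma-voom gave miR-133a-3p (-0.059), miR-214-3p (-0.10), miR-142a-3p (0.099) and miR-378a-3p (-0.0025). A mean of at least 10 CPM gave miR-499-5p (0.049), miR-126a-3p (0.0035) and miR-486b-5p (0.15). Ear-tag range gave miR-499-5p (0.17), miR-214-3p (-0.38), miR-132-3p (-0.017) and miR-126a-3p (0.089), and the replicate block gave miR-22-3p (-0.048). Leaving out single libraries crossed 0 for miR-22-3p (-0.039 to 0.098), miR-214-3p (-0.28 to 0.31), miR-29a-3p (-0.093 to 0.14), miR-486b-5p (-0.43 to 0.15), miR-499-5p (-0.33 to 0.22), miR-132-3p (-0.069 to 0.27), miR-378a-3p (-0.045 to 0.10), miR-212-5p (-0.45 to 0.012), miR-126a-3p (-0.24 to 0.11), miR-142a-3p (-0.36 to 0.12), miR-451a (-0.56 to 0.095), miR-208a-3p (-0.52 to 0.096) and miR-133a-3p (-0.0066 to 0.28).

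With 10 libraries the sign turned under total-count scaling for miR-1a-3p (0.016), miR-133a-3p (0.070), miR-199a-5p (0.038), miR-29b-3p (0.065), miR-30a-5p (0.020), miR-132-3p (0.056) and miR-378a-3p (0.059). Under upper-quartile scaling it turned for miR-1a-3p (0.078), miR-133a-3p (0.10), miR-29b-3p (0.11), miR-30a-5p (0.037), miR-132-3p (0.080) and miR-378a-3p (0.075). DESeq2 size factors in edgeR gave miR-133a-3p (0.040), miR-29b-3p (0.049) and miR-378a-3p (0.0051), and the Wald test gave miR-133a-3p (0.040), miR-29b-3p (0.048) and miR-378a-3p (0.0051). limma-voom gave miR-208a-3p (-0.26), miR-499-5p (-0.015), miR-214-3p (-0.13), miR-132-3p (0.032) and miR-451a (-0.38). No filter gave miR-133a-3p (0.043), miR-29b-3p (0.052), miR-132-3p (0.0022) and miR-378a-3p (0.016), and a mean of at least 10 CPM gave miR-1a-3p (0.012), miR-133a-3p (0.073), miR-29b-3p (0.070), miR-132-3p (0.029) and miR-378a-3p (0.035). Ear-tag range gave miR-1a-3p (0.10), miR-133a-3p (0.072), miR-214-3p (-0.35), miR-451a (-0.16) and miR-378a-3p (0.052), and the replicate block gave miR-208a-3p (-0.16), miR-133a-3p (0.020), miR-29b-3p (0.084) and miR-451a (-0.14). Leaving out single libraries crossed 0 for miR-30a-5p (-0.20 to 0.063), miR-451a (-0.33 to 0.35), miR-378a-3p (-0.11 to 0.052), miR-133a-3p (-0.11 to 0.14), miR-199a-5p (-0.46 to 0.14), miR-29b-3p (-0.17 to 0.14), miR-132-3p (-0.20 to 0.19), miR-21a-5p (-0.64 to 0.095), miR-1a-3p (-0.36 to 0.15), miR-212-5p (-0.40 to 0.072), miR-34c-5p (-0.48 to 0.0069), miR-208a-3p (-0.27 to 0.29), miR-499-5p (-0.090 to 0.40), miR-126a-3p (-0.055 to 0.25), miR-214-3p (-0.27 to 0.37) and miR-142a-3p (-0.052 to 0.39).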
